A study of Mus musculus with 16 samples.

Results

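The Hoxb cluster on mouse chromosome 11 holds 10 protein-coding genes, Hoxb1 to Hoxb9 and Hoxb13, of the 21938 protein-coding genes in the GENCODE M21 annotation (build mm10). Each gene was examined over its gene region, defined as the gene body together with 1 kb on either side of every annotated start site, and a gene was said to carry a mark when a listed peak overlapped that region by at least 1 bp. The regions of the 10 genes did not overlap one another and summed to 71072 bp. Hematopoietic stem cells (HSCs) from the bone marrow of 10-week-old C57BL/6 mice (young) and 20-month-old C57BL/6 mice (aged) were compared. The cells carried no engineered allele and received no treatment according to the labels, and were sorted as Lin- cells that were Sca-1+, c-kit+ and CD150+ and, as the labels spell it, IL-7-, Flt3-, CD48- and CD34-. H3K4me3, H3K27me3 and H2AK119ub1 were mapped by ChIP-seq, the sequencing of DNA recovered with an antibody to the mark, in 16 libraries that make 8 groups of 2 (each mark and the input DNA at both ages). The peaks came as 1 pooled list for each mark and age, which leaves no replicate spread to test against, and every difference below is one between 2 lists, without a test.

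Hox genes encode homeodomain transcription factors that give body segments their identity, and their order on the chromosome follows the order in which they are expressed along the body axis. Hoxb13 lies at the end that is expressed most posteriorly and Hoxb1 at the end that is expressed most anteriorly, and several of the genes are known for roles in blood stem cells and leukemia. H3K4me3 is a mark of active or poised promoters, whereas H3K27me3 is placed by Polycomb repressive complex 2 and H2AK119ub1 by Polycomb repressive complex 1 at silenced developmental genes, of which Hox clusters are the classical example.

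The young and aged lists differed in length for each mark, so counts are compared between lists of unequal length unless stated otherwise. H3K4me3 had 11371 young peaks and 6723 aged peaks. H3K27me3 had 63142 young regions and 20419 aged regions, while H2AK119ub1 had 2593 young regions and 17768 aged regions. The lists do not give sequencing depth. For H3K4me3 the number of reads at each summit could be recovered, with a median of 20 reads in the young list and 19 in the aged list, over a lowest background of 3.70 and 3.52 reads. Where the background was near its lowest level, no peak with fewer than 13 reads was listed at either age, so a gene without a peak may still hold the mark at a lower level. The depth behind the H3K27me3 and H2AK119ub1 regions is unknown. As a check on the labelled cells, 7 of 8 genes typical of HSCs carried H3K4me3 in young cells and 5 of 8 in aged cells, beside 36.7% and 25.7% of all protein-coding genes. Longer gene regions meet more peaks, and region length was not matched in this comparison. Ly6a, which encodes the sorting marker Sca-1, had no peak at either age. Slamf1, which encodes the sorting marker CD150, had 1 young peak and 0 aged peaks, and Gata2 had 4 and 0.

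Sequences are shown for 6 places on which the results turn, read from the mm10 genome on the plus strand, the strand of all 10 genes. CpG dinucleotides, the sites of DNA methylation and the base feature to which Polycomb and H3K4 methyltransferase complexes are drawn at promoters, are in capitals. The first lay in the region upstream of the Hoxb13 start site at chr11:96194076-96194315, which was under the widest young H3K27me3 region and the strongest aged H2AK119ub1 region of the 10 genes.
Hoxb13 upstream of the start site: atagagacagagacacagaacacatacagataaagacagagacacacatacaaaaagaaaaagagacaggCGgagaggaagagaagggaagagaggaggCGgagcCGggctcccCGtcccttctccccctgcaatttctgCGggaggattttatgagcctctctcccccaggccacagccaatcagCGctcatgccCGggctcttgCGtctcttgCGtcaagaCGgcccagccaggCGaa
The second lay under the strongest aged H3K4me3 peak of the 10 genes, at chr11:96272004-96272243 in Hoxb9, with 55 bp of coding sequence and 185 bp of intron.
Hoxb9 aged H3K4me3 peak: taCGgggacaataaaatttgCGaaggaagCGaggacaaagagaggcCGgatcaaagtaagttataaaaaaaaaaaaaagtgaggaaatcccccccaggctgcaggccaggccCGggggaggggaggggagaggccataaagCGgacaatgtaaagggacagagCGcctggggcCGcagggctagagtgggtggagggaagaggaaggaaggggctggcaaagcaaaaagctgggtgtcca
The third lay in the intron of Hoxb5 at chr11:96304369-96304608, under the widest H3K4me3 peak of the 10 genes, which was listed in young cells only.
Hoxb5 young H3K4me3 peak: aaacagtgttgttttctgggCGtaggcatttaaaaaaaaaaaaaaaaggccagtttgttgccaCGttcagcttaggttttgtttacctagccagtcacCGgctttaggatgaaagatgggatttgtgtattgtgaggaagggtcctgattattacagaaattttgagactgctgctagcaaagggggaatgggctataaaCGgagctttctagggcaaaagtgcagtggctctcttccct
The fourth came from the intergenic stretch between Hoxb5 and Hoxb4 at chr11:96307834-96308073, where H3K4me3 peaks of both ages overlapped.
Hoxb5 to Hoxb4 intergenic peak: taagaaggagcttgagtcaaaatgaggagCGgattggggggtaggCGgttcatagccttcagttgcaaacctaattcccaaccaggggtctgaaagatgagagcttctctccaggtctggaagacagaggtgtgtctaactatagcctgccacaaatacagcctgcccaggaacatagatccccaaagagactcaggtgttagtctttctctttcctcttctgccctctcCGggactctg
The fifth, at chr11:96319840-96320077 in Hoxb4, was the only place within the 10 gene regions where H3K4me3 peaks of the ages overlapped, and held 190 bp of intron and 48 bp of coding sequence.
Hoxb4 peak overlap of the ages: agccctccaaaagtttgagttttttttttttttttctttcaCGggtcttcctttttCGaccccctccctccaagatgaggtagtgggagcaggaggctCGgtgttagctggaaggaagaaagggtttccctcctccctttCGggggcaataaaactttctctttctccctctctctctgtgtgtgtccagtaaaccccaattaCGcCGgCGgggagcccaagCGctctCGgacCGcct
The last lay under the aged H3K4me3 peak of Hoxb1 at chr11:96366171-96366410, with 221 bp of coding sequence.
Hoxb1 aged H3K4me3 peak: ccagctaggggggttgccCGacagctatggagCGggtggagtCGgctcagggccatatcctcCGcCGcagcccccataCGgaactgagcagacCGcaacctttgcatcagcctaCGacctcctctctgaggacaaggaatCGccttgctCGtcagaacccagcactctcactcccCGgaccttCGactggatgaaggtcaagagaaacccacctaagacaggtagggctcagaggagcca
These stretches of up to 240 bases held 11, 8, 4, 3, 10 and 12 CpG dinucleotides, respectively, from Hoxb13 to Hoxb1 in the order shown. The ratio of observed to expected CpG was lowest in the intergenic stretch at 0.197 and highest in Hoxb4 at 0.625.

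In young HSCs, H3K27me3 covered the posterior genes from Hoxb13 to Hoxb6 and, apart from them, the start of Hoxb1, while Hoxb5, Hoxb4, Hoxb3 and Hoxb2 had none. H3K4me3 lay mainly from Hoxb8 to Hoxb2, with its densest run between Hoxb5 and Hoxb4. In aged HSCs, listed H3K27me3 was left at Hoxb13, Hoxb9 and Hoxb8, and H2AK119ub1 was listed at 8 genes.

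**Figure D1:**
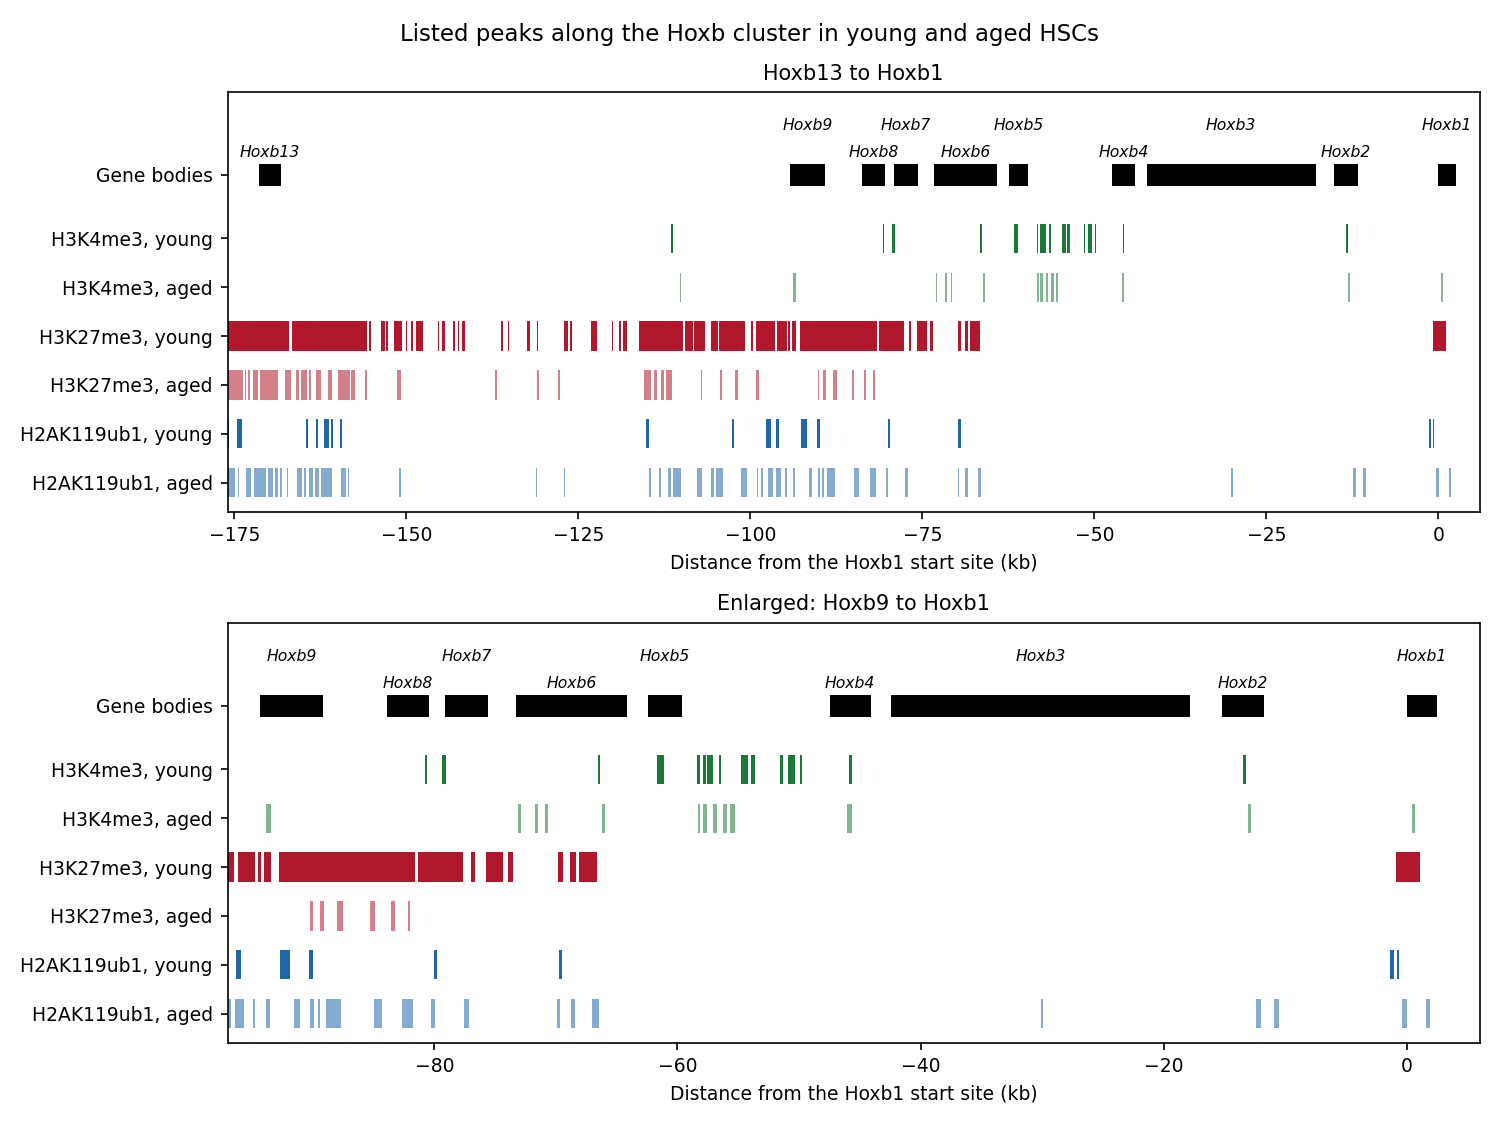
Listed peaks along the Hoxb cluster by distance from the Hoxb1 start site in kb, with gene bodies as black boxes and 1 row for each mark and age (young dark, aged light); the lower panel enlarges the stretch from Hoxb9 to Hoxb1. Young H3K27me3 ends in Hoxb6 and returns only at Hoxb1, and the stretch between Hoxb5 and Hoxb4 holds H3K4me3 peaks alone, 9 young and 5 aged.

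H3K27me3 was carried by 6 of the 10 genes in young HSCs, where 22.2% of all protein-coding genes carried it, and by 3 in aged HSCs, where 13.3% did. The 3 aged genes (Hoxb13, Hoxb9 and Hoxb8) also carried it in young cells, and Hoxb7, Hoxb6 and Hoxb1 carried it in young cells only. Among all genes that carried H3K27me3 in young cells, 57.6% also did so in aged cells, so that 3 of 6 lay near the share of all genes. The regions covered 20810 bp of the gene regions (29.3%) in young cells and 4474 bp (6.30%) in aged cells, a ratio of 0.215, and all 4474 aged bp lay within young regions. Over all protein-coding genes, 1.91% and 0.473% of the gene regions were covered. The regions of these 21938 genes summed to 1058100406 bp, against 71072 bp for the 10 Hoxb genes, and so were longer on average. A peak of given width takes a smaller share of a longer region, and the shares were not matched for length. When the young list was cut to its strongest 20419 regions to match the aged list, the same 6 genes carried the mark and 27.4% was covered. No share of all genes was computed for the cut list.

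Hoxb13, a posterior gene known from the tail bud and the prostate, was wholly covered by H3K27me3 in young HSCs. A single region of 21437 bp, chr11:96177254-96198690, spanned it with a fold enrichment of 4.07, and was the 8th widest of the 63142 young regions. In aged HSCs 83.0% of Hoxb13 was still covered, by a region of 817 bp upstream of the start (3.98-fold) and one of 2611 bp over the gene (3.63-fold). Hoxb13 thus kept more of its cover than the other genes of the cluster, all of which stood at or under 11.7% in aged cells.

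Hoxb9, a gene of the posterior thorax, lay 74009 bp away. It was covered over 80.8% in young cells, mostly by a region of 11191 bp that began within Hoxb9 and ran on through the whole intergenic stretch into Hoxb8 (chr11:96273000-96284190, 3.42-fold). This region ranked 87th by width in its list. In aged cells 8.67% of Hoxb9 was covered, by a region of 251 bp in its UTR and one of 368 bp that ran from the UTR past the gene's end. Neither lay within 1 kb of its start sites.

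Hoxb8, known to block myeloid differentiation when it is overexpressed, was covered over 94.4% in young cells and 11.7% in aged cells. Its aged regions of 280 and 234 bp had fold enrichments of 3.73 and 3.74, and they stood at percentiles 96.9 and 95.3 of the aged list by q-value. Hoxb7, its neighbour, was covered over 65.7% in young cells. A region of 3674 bp (3.64-fold) ran from Hoxb8 across the Hoxb7 start. Hoxb6, the next gene, was covered over 26.4% by 4 separate young regions with fold enrichments of 3.05 to 3.37. Neither gene had a listed region in aged cells, and the nearest lay 2832 bp from the first Hoxb7 start and 8685 bp from the first Hoxb6 start.

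Hoxb5, a marker of long-term HSCs, Hoxb4, known to expand HSCs when it is overexpressed, Hoxb3 and Hoxb2 carried no H3K27me3 at either age. The young list had no region over the 65787 bp from within Hoxb6 to the upstream side of Hoxb1. Hoxb1, which patterns the hindbrain, was covered over 54.4% in young cells by 1 region of 1907 bp across its start (chr11:96364902-96366808, 3.28-fold). In the aged list no region followed the last one in Hoxb8 for 731867 bp, which takes in the rest of the cluster and the flank beyond Hoxb1.

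**Figure D2:**
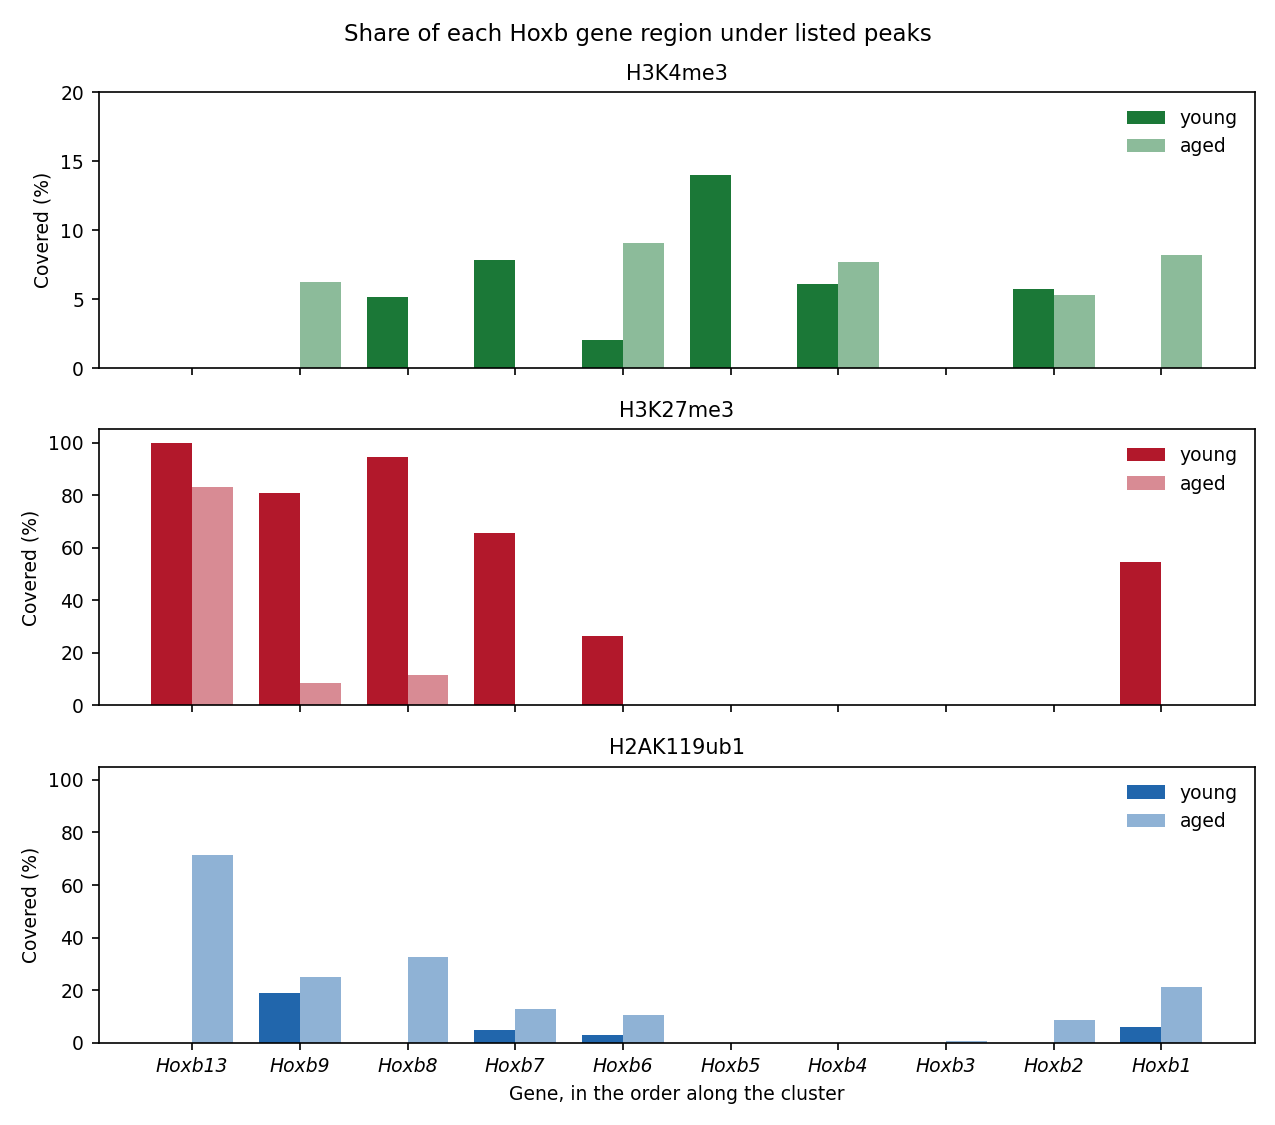
Share of each Hoxb gene region under listed peaks in percent, for each mark, with 1 bar for the young list (dark) and 1 for the aged list (light); each bar is a single pooled list and has no error bar. For H3K27me3 only Hoxb13 keeps over 80% in the aged list (83.0%), and for H2AK119ub1 Hoxb13 has the tallest bar (71.5%, aged).

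H2AK119ub1 was carried by 4 of the 10 genes in young HSCs, where 4.64% of all protein-coding genes carried it, and by 8 in aged HSCs, where 23.8% did. All 4 young genes (Hoxb9, Hoxb7, Hoxb6 and Hoxb1) also carried it in aged cells, and Hoxb13, Hoxb8, Hoxb3 and Hoxb2 carried it in aged cells only. Among all genes, 89.0% of those that carried the mark in young cells also did in aged cells. The covered length was 1895 bp (2.67%) in young and 8929 bp (12.6%) in aged cells, a ratio of 4.71, with 394 bp shared. Over all protein-coding genes, whose regions are longer on average, 0.05% and 0.434% were covered. The aged list was also cut to its strongest 2593 regions to match the young list. Then 2 of the 10 genes (Hoxb13 and Hoxb6) carried the mark and 2.69% was covered. The higher aged count was thus not seen at equal list length. The share of all genes at that length was not computed, so this cannot be called particular to Hoxb.

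Hoxb13 went from no listed H2AK119ub1 in young cells, where the nearest region lay 2457 bp from the start, to 71.5% in aged cells. The aged region across its start, chr11:96193570-96195281, was 1712 bp wide with a fold enrichment of 4.63 and stood at percentile 99.9 of its list by q-value. It covered the upstream sequence printed above. Of the 20 aged regions at the 10 genes, the next strongest was a region of 203 bp in a Hoxb6 intron (chr11:96295865-96296067, 4.41-fold), which overlapped a young region by 84 bp.

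Hoxb9 was covered over 19% in young and 25.0% in aged cells. The young region of 826 bp (3.63-fold) in its intron had no aged counterpart, and 1 of the 5 aged regions overlapped a young one. In the whole lists 50.9% of the young regions and 7.07% of the aged regions overlapped a region of the other age. Hoxb8 was covered over 0% and 32.6%, Hoxb7 over 4.76% and 13.0%, and Hoxb6 over 2.99% and 10.6%. At Hoxb7 the young and aged regions upstream of the start met over 15 bp.

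Among the anterior genes, Hoxb5 and Hoxb4 carried no H2AK119ub1 at either age. Hoxb3 had 1 aged region of 200 bp in an intron (3.42-fold, 0.781% of its gene region), and Hoxb2 had 1 aged region of 398 bp at its far end (2.91-fold, 8.87%). By q-value within the aged list they stood at percentiles 69.6 and 20.6. At Hoxb1 the young list had a region of 212 bp, 608 bp upstream of the start (4.24-fold, percentile 99.3), whereas the aged list had a region of 428 bp across the start (3.07-fold, percentile 20.5) and one of 320 bp further on (3.40-fold), and none of them overlapped between the ages.

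**Figure D3:**
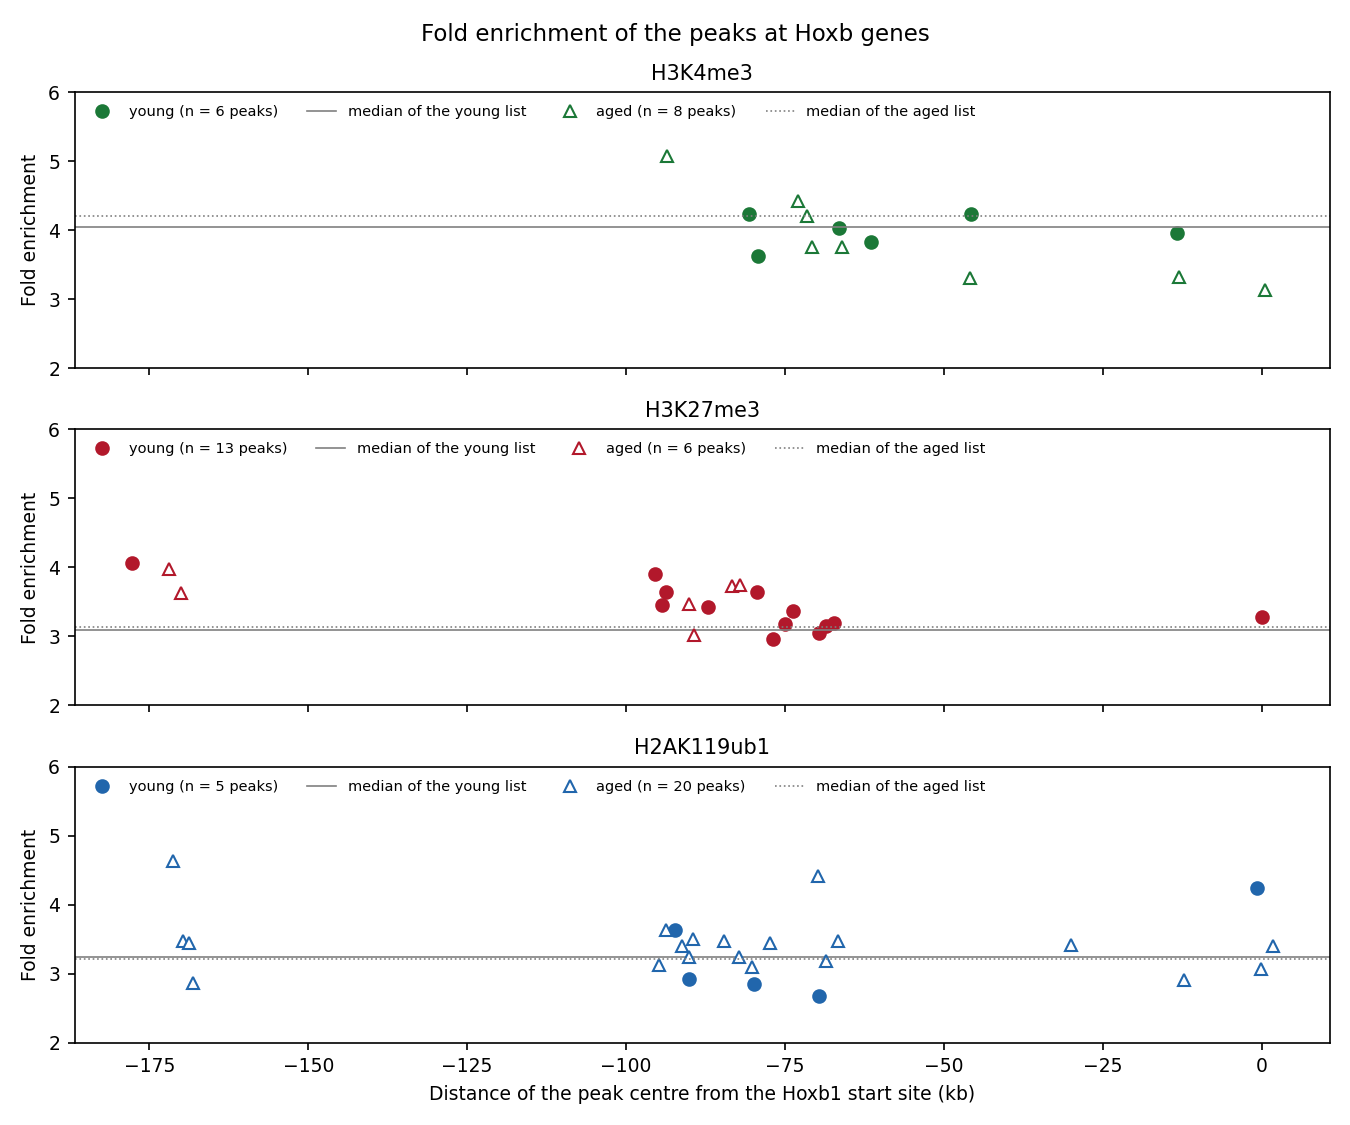
Fold enrichment of each listed peak at the 10 Hoxb genes (linear ratio over background, as the authors' caller gave it) against the distance of the peak centre from the Hoxb1 start site in kb; filled circles are young and open triangles aged, and the lines give the median of each whole list. The highest H3K4me3 value is the aged peak in Hoxb9 (5.08) and the highest H2AK119ub1 value the aged region at Hoxb13 (4.63).

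H3K4me3 was carried by 6 of the 10 genes in young HSCs (Hoxb8, Hoxb7, Hoxb6, Hoxb5, Hoxb4 and Hoxb2), where 36.7% of all protein-coding genes carried it. In aged HSCs 5 did (Hoxb9, Hoxb6, Hoxb4, Hoxb2 and Hoxb1), where 25.7% of all genes did. Hoxb6, Hoxb4 and Hoxb2 carried it at both ages, and Hoxb13 and Hoxb3 at neither. Of all genes that carried the mark in young cells, 53.9% also carried it in aged cells. The peaks covered 1846 bp (2.60%) in young and 2156 bp (3.03%) in aged cells, with 238 bp shared. Over all protein-coding genes, whose regions are longer on average, H3K4me3 covered 0.335% in young and 0.179% in aged cells. Region length was not matched, so the higher Hoxb shares cannot be called particular to Hoxb. Of the peaks at the 10 genes, 1 of 6 young (16.7%) and 1 of 8 aged (12.5%) overlapped a peak of the other age, beside 31.5% and 53.1% of the whole lists. With the young list cut to its strongest 6723 peaks, 3 genes (Hoxb8, Hoxb6 and Hoxb4) carried H3K4me3 and 0.985% was covered. The higher young count was thus not seen at equal list length. The matching share of all genes was not computed.

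The median fold enrichment of the H3K4me3 peaks at the 10 genes was 4.00 in young cells (6 peaks), beside 4.04 for the whole list, and 3.76 in aged cells (8 peaks), beside 4.20. By q-value the aged peaks ranged from percentile 1.56 of their list at Hoxb1 to percentile 90.4 at Hoxb9. Their summits held 17 to 20 reads in young cells and 14 to 22 in aged cells. The 95% Poisson intervals of all these counts overlap, and they cover counting error only.

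Hoxb9 carried H3K4me3 in aged cells only. The peak, chr11:96271940-96272323, lay 483 bp past the first start site with a fold enrichment of 5.08 and 22 reads at its summit (95% interval 13.8 to 33.3), the highest among the 10 genes. It overlapped an aged H2AK119ub1 region of 270 bp (3.64-fold). In young cells the same place held an H3K27me3 region (chr11:96271772-96272355, 3.64-fold) and no H3K4me3 peak, the nearest of which lay 13508 bp from the start. Hoxb8 and Hoxb7 carried H3K4me3 in young cells only, at places that also lay under young H3K27me3. The Hoxb8 peak lay near the end of the gene (4.23-fold, 20 reads, 12.2 to 30.9), 1432 bp upstream of the Hoxb7 start, and the Hoxb7 peak lay across that start (3.63-fold, 17 reads, 9.90 to 27.2).

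At Hoxb6 the young list had 1 peak, 16 bp past its second start site (4.03-fold, 19 reads), and the aged list had 4, with fold enrichments of 3.76 to 4.42 and 16 to 19 reads. None of the aged peaks overlapped the young one, where 53.1% of the whole aged list overlapped a young peak. The Hoxb5 peak of the young list was 531 bp wide (chr11:96304090-96304620, 3.83-fold, 17 reads, 9.90 to 27.2). Hoxb5 had no listed peak of any of the 3 marks in aged cells, and the nearest aged H3K4me3 peak lay 3540 bp from the gene's first start. Hoxb4 was the gene whose H3K4me3 peaks overlapped between the ages, with a fold enrichment of 4.23 and 20 reads (12.2 to 30.9) in young and 3.31 and 18 reads (10.7 to 28.4) in aged cells.

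Hoxb2, which acts with Hoxb1 in the hindbrain, had 1 peak at each age, which did not overlap. The young peak had a fold enrichment of 3.96 (18 reads) and the aged peak one of 3.32 (14 reads). Hoxb1 had an aged peak across its second start site (3.13-fold, 14 reads, 7.65 to 23.5), which was among the weakest of its list at percentile 1.56 by q-value. The young H3K27me3 region of Hoxb1 covered the same place.

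The densest H3K4me3 of the cluster lay outside the gene regions, in the 12145 bp between Hoxb5 and Hoxb4. This stretch also holds Mir10a, a microRNA gene that had no peak of any mark within 1 kb. The young list had 9 peaks there, which covered 3213 bp (26.5%) over a span of 8696 bp, with fold enrichments of 3.17 to 4.25 and 16 to 23 reads. The aged list had 5, which covered 1579 bp (13.0%) over a span of 3094 bp on the Hoxb5 side, with fold enrichments of 3.96 to 4.64 and 18 to 22 reads. Of these, 3 of 9 young and 2 of 5 aged peaks overlapped a peak of the other age, beside the 31.5% and 53.1% of the whole lists. The aged list had no peak in the 7750 bp next to Hoxb4, and neither H3K27me3 nor H2AK119ub1 was listed in the stretch at either age. Of the H3K4me3 peaks from the start of Hoxb13 to the end of Hoxb1, 9 of 16 young peaks and 5 of 14 aged peaks lay here.

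Read together by gene, 3 genes carried both H3K4me3 and H3K27me3 in young HSCs (Hoxb8, Hoxb7 and Hoxb6), where 5.22% of all genes carried both, and 1 did in aged HSCs (Hoxb9), where 1.88% did. Both H3K27me3 and H2AK119ub1 were carried by 4 genes in young cells (Hoxb9, Hoxb7, Hoxb6 and Hoxb1), where 4.02% of all genes carried both, and by 3 in aged cells (Hoxb13, Hoxb9 and Hoxb8), where 9.30% did. Among the 10 genes, Hoxb4 alone was listed with the same combination at both ages, H3K4me3 without either Polycomb mark. The share of all genes that kept their combination was not computed, and the lists of the ages differ in length. Carrying both marks did not always mean sharing a place. In young cells 2 of the 6 peaks with H3K4me3 lay on an H3K27me3 region (33.3%, beside 7.4% of the whole list), those at Hoxb8 and Hoxb7, whereas the Hoxb6 peak lay just past the end of one. In aged cells 0 of 8 did, beside 2.53% of the whole list. All 5 young H2AK119ub1 regions lay on H3K27me3 regions (74.2% in the whole list), and 7 of the 20 aged ones did (35.0%, beside 25.9%).

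The other Hox clusters are set beside Hoxb as values, and no test was made. In young HSCs H3K27me3 covered 17.7% of the gene regions of the Hoxa cluster (11 genes), 29.3% of Hoxb, 95.3% of Hoxc (9 genes) and 90.1% of Hoxd (9 genes). In aged HSCs these values were 5.83%, 6.30%, 43.4% and 51.4%. H2AK119ub1 covered 2.22%, 2.67%, 15.7% and 13.0% in young cells and 11.7%, 12.6%, 44.1% and 42.1% in aged cells, in the same order. Hoxb stood near Hoxa for H2AK119ub1 at both ages and for aged H3K27me3, and above Hoxa for young H3K27me3. For both Polycomb marks Hoxb stood below Hoxc and Hoxd. H3K4me3 covered 7.25% of Hoxa in young and 3.51% in aged cells, 0.759% and 0.402% of Hoxc, and none of Hoxd at either age. Hoxb was the only cluster of these 4 in which the aged H3K4me3 cover was the larger (2.60% and 3.03%), 1846 bp and 2156 bp under peaks of 14 to 22 reads, and this order turned around when peaks under a −log10 q-value of 4 were left out (1.35% and 1.22%) and with start sites alone (3.81% and 3.38%).

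**Figure D4:**
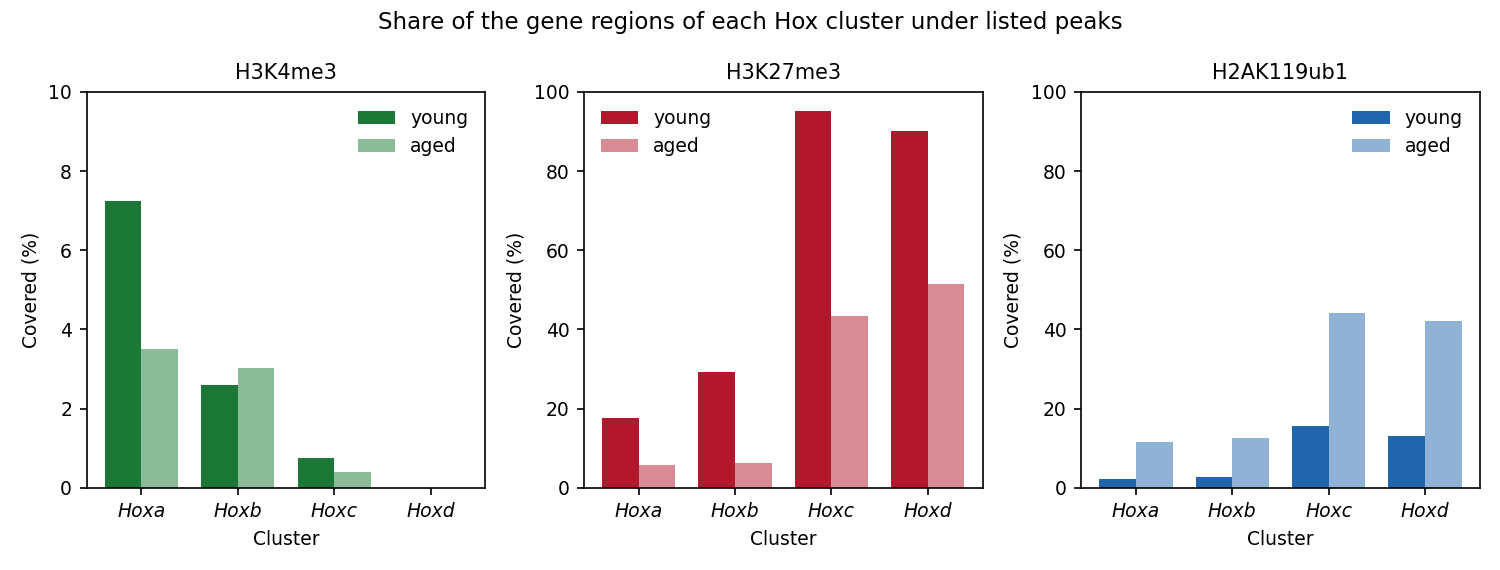
Share of the gene regions of each Hox cluster under listed peaks in percent, for each mark, young (dark) and aged (light); each bar is 1 pooled list with no error bar, and the H3K4me3 axis ends at 10% while the others end at 100%. For young H3K27me3 Hoxb lies above Hoxa (29.3% and 17.7%) and below Hoxc and Hoxd (95.3% and 90.1%).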

How the data were processed

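ChIP-seq libraries of young and aged HSCs were cross-linked, digested with micrococcal nuclease and sonicated, and the authors aligned single reads to mm10 with Bowtie2 at default settings. MACS2 2.2.6 is named in the submitters' processing notes. The deposited lists are narrow peaks for H3K4me3 and broad regions for H3K27me3 and H2AK119ub1, pooled by age. Peak names of the broad lists carry a single library number, so it is not certain that both libraries entered them. The deposited values of each peak are its fold enrichment as a linear ratio, the −log10 of its p-value and the −log10 of its q-value, each from the authors' caller. The deposited −log10 q-value served as the score by which peaks were ranked. The p-values of broad regions were not used. Averages over a region are given for broad lists. The offset of the summit is also deposited for narrow peaks. Multiply mapping reads, duplicates and the caller's threshold all affect what is listed.

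From these lists, overlaps with gene regions (at least 1 bp) and covered lengths were computed in Python 3.11.15 with numpy 2.4.6 and scipy 1.17.1, after peaks off chromosomes 1 to 19, X and Y were left out (0 to 6 per list). Reads at H3K4me3 summits were solved from the fold and p-value, and were whole for 100% of peaks (tolerance 0.01 in −log10 p). Their 95% intervals are exact Poisson intervals. Overlap counting and read recovery were tested on simulated data. Sequence was read with pysam 0.24.0 from GRCm38.p6, and 3 of 3 Hoxb promoters of the RefSeq table were found at their coordinates. Plots were drawn with matplotlib 3.10.9.

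All 10 members were described with every overlapping peak. Other annotated genes between them, the first protein-coding gene beyond each end, and the other Hox clusters and cofactors were described by count. HSC genes used to check the cell type were listed separately, and a check on genes of mature lineages is not reported here. The members and lists were chosen with earlier results of these data known. With 1 pooled list for each mark and age, no test was possible. Alternatives were a −log10 q-value of at least 4, equal list lengths, start sites alone, 2.5 kb flanks, protein-coding transcripts alone, at least 50% of a peak inside the gene region, and joining of peaks within 1 kb.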

Additional observations from a re-analysis of the deposited data

How the results depend on the processing

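No paired analysis was possible because the libraries of a group were pooled into 1 list and no test was made. For the same reason no library could be left out. Of 112 values under 7 alternatives, 54 of 70 counts of genes stayed within 1.5 times and 15 of 42 covered percentages stayed inside their 95% Wilson intervals, which count bases and are narrow. Of the other 27 percentages, 11 differed by more than 1.5 times.

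With peaks kept from a −log10 q-value of 4 upward, H3K27me3 was left at 2 genes in young cells (6.64% covered) and 0 in aged cells (0%). H2AK119ub1 was left at 0 genes in young (0%) and 2 in aged cells (2.69%), and H3K4me3 at 2 aged genes (1.22%), with 1.35% covered in young cells. Each count of genes with both marks of a pair fell to 0. This threshold removes peaks by construction, most of all from the broad lists, whose median q-values lie below it.

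With equal list lengths, H3K4me3 was at 3 young genes (0.985%), H2AK119ub1 at 2 aged genes (2.69%), both Polycomb marks at 1 aged gene, and young H3K27me3 covered 27.4%. The lead of aged over young cells in H2AK119ub1 genes turned around under this alternative (2 aged against 4 young). The lead of young over aged cells in H3K4me3 genes turned around as well (3 young against 5 aged). Shares of all protein-coding genes were not computed under any alternative.

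With 1 kb around start sites alone, the counts were 2 for young H2AK119ub1, 3 for aged H3K4me3, 2 for both Polycomb marks in young cells, and 0 for both H3K4me3 and H3K27me3 in aged cells. The covered percentages were 37.3% for young H3K27me3, 1.31% and 15.1% for young and aged H2AK119ub1, and 3.81% and 3.38% for young and aged H3K4me3.

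With 2.5 kb flanks the percentages were 31.6% and 6.57% for young and aged H3K27me3, 3.18% and 12.9% for H2AK119ub1, and 2.46% and 2.57% for H3K4me3. With joined peaks they were 35.3% and 7.56%, 2.92% and 19.2%, and 3.88% for aged H3K4me3. Young H3K27me3 covered 29.8% with protein-coding transcripts alone. It covered 12.8% with at least 50% of the region inside the gene region, since this leaves out the region of 21437 bp at Hoxb13 and the one that joins Hoxb9 and Hoxb8. H3K27me3 cover was higher in young than in aged cells under all 7 alternatives, whereas the order of H3K4me3 cover turned around with a stricter q-value and with start sites alone.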

Other observations

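Of the 9 noncoding genes and pseudogenes annotated between Hoxb13 and Hoxb1, 6 carried H3K27me3 in young and 3 in aged cells, 3 carried H2AK119ub1 in young and 6 in aged cells, and 3 carried H3K4me3 at each age. The share over all noncoding genes was not computed. These counts are not independent, since Gm27898 and Gm27605 lie side by side and share H3K27me3 regions. Hoxb5os and Hoxb3os likewise share peaks with Hoxb genes. Gm53, a long noncoding RNA gene upstream of Hoxb9, was covered by H3K27me3 over 88.8% in young and 24.9% in aged cells and by H2AK119ub1 over 4.37% and 33.7%. Mir196a-1, a microRNA gene whose product targets Hox transcripts, was covered by H3K27me3 over 57.8% in young cells and 0% in aged cells, and by H2AK119ub1 over 0% and 36.9%. The antisense gene Hoxb5os, which runs across Hoxb5 and Hoxb6, was covered by H3K4me3 over 6.58% and 7.2%. It had 4 young and 6 aged H3K4me3 peaks, of which 2 young and 4 aged peaks are those of Hoxb6 and Hoxb5, and the others lie in the stretch between Hoxb5 and Hoxb4. Hoxb3os, which runs across Hoxb2 and part of Hoxb3, was covered over 2.04% and 1.89% by the peaks of Hoxb2.

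The stretch between Hoxb13 and Hoxb9 was covered by H3K27me3 over 53.7% in young and 16.1% in aged cells, and by H2AK119ub1 over 4.93% and 18.4%. Beyond Hoxb13, Ttll6, a tubulin glutamylase gene, was covered by H3K27me3 over 36.9% and 8.01% and carried no H3K4me3. Beyond Hoxb1, Skap1, an adaptor gene of T cells, was covered over 0.528% and 0%. Among 9 genes for the homeodomain partners of Hox proteins (Pbx, Meis and Pknox), H3K4me3 was carried by 6 at each age, H3K27me3 by 4 and 2, and H2AK119ub1 by 1 and 6 in young and aged cells. Of all protein-coding genes, 36.7% and 25.7% carried H3K4me3, 22.2% and 13.3% H3K27me3, and 4.64% and 23.8% H2AK119ub1. The regions of the 9 partner genes summed to 1222276 bp, against 71072 bp for the Hoxb genes, and longer regions meet more peaks. Meis1 had 10 young and 5 aged H3K4me3 peaks and no H3K27me3.

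In base composition, young H3K27me3 regions at the 10 genes had a median ratio of observed to expected CpG of 0.404, beside 0.178 in the whole list, and aged regions 0.334 beside 0.206. For aged H3K4me3 peaks the median at the 10 genes was 0.397, beside 0.619 in the whole list, and for young peaks 0.584 beside 0.604. Within 1 kb of the first start site, the number of CpG dinucleotides ran from 20 at Hoxb2 and 23 at Hoxb3 to 111 at Hoxb7 and 124 at Hoxb9. No test was made of these values.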
